A study of Mus musculus with 6 samples.

Results

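The 38 genes described here are Hox genes of the mouse, chosen by name from the 4 Hox clusters, 10 in HoxA, 10 in HoxB, 9 in HoxC and 9 in HoxD, out of 21519 protein-coding genes. The peaks were those of a deposited SP8 list with their centre inside a cluster or within 100 kb of it, and 8 of the 1451 peaks met this rule. The list came from ChIP-seq, the sequencing of DNA pulled down with a protein, and was named by its authors for SP8 replicate 1. SP8 samples came from C57BL6J embryos of stage E10.5 homozygous for a knock-in allele of Sp8 with a FLAG tag (genotype label Sp8FL KI), with the ectoderm of 50 forelimb buds pooled per replicate and anti-FLAG M2 as the antibody. The series held 6 libraries, 2 SP8 immunoprecipitations and 2 inputs of that genotype, and 1 immunoprecipitation of dimethylated histone H3 lysine 4 with 1 input from wild-type embryos. Libraries other than the one behind this list were not analysed here, so no peak below has a replicate check, an input value or a known depth. A gene's number gives its paralogue group, its place along the cluster: genes of paralogue groups 1 to 8 are called anterior (22 genes) and those of groups 9 to 13 posterior (16 genes). Genes of a cluster share peaks, so each cluster is 1 locus and the genes in it are not independent.

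Hox genes encode homeodomain transcription factors that give cells their position along the body and limb axes. In mammals they lie in 4 clusters, HoxA to HoxD, in which a gene's place along the chromosome follows where and when it is used: genes of low paralogue number stand at one end and act early and towards the head, and genes of high number stand at the other end and act late and towards the tail or the limb tip. In limbs the best known Hox roles are in the mesenchyme, while HoxC genes, Hoxc13 above all, are known from skin appendages such as hair and nails. SP8, a protein with zinc fingers that binds DNA, is made in the limb ectoderm, the outer cell layer, and is needed for limb outgrowth. Proteins of its family bind GC-rich boxes.

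SP8 peaks were found inside all 4 clusters, 1 each in HoxA and HoxD and 2 each in HoxB and HoxC. Whether their places differ from an even spread was not tested, and so few peaks could hardly show it. In HoxA, HoxB and HoxD every peak inside the cluster lay among the lowest paralogue numbers, at Hoxa4, at Hoxb2 and Hoxb3, and between Hoxd3 and Hoxd1. HoxC had peaks at Hoxc6 and Hoxc9, at 32.8% and 46.4% of its length from the anterior end, and a peak just outside Hoxc13. The Hoxa4 peak lay at 29.4% of HoxA, by share of length close to the place of the Hoxc6 peak in HoxC (28.9 and 37.9 kb from the anterior end). In 3 of the 4 clusters no posterior gene had a peak within 10 kb, and the posterior genes that did were Hoxc9 and Hoxc13. Those 3 clusters hold 11 posterior genes, and 5.4% of all protein-coding genes had such a peak. A count of 0 in 11 is thus near the background. This difference between clusters rests on 8 peaks and has no test.

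**Figure D1:**
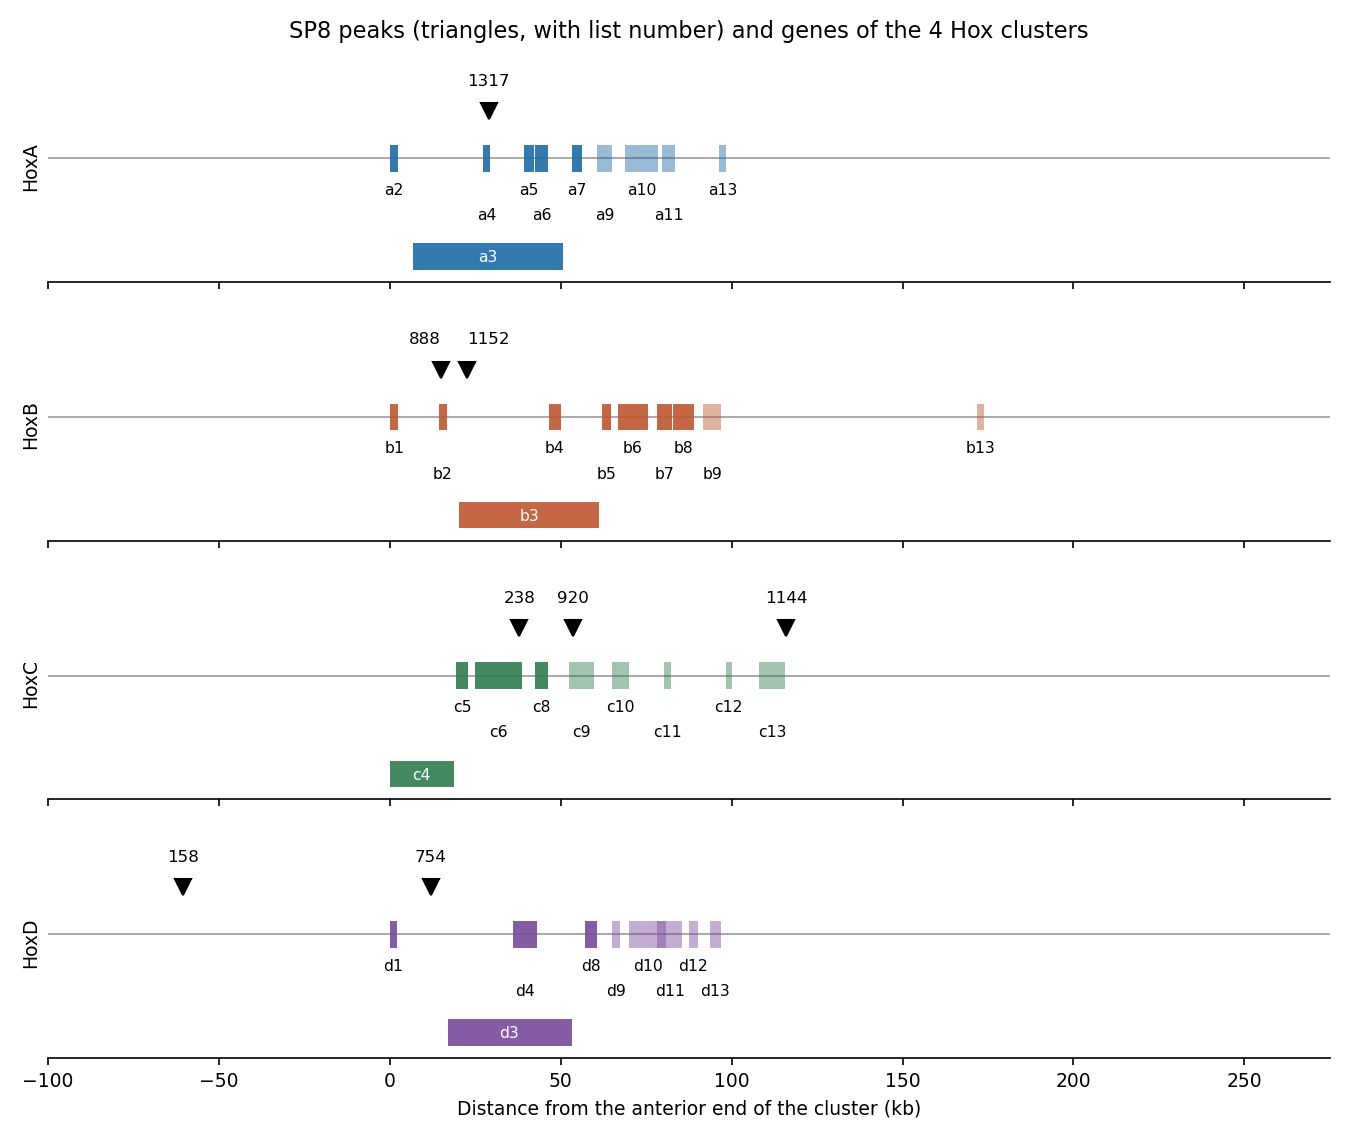
Map of the 4 Hox clusters, each drawn from its anterior end at 0 kb, with genes as bars (dark for anterior, pale for posterior, genes over 15 kb on a lower row) and SP8 peak centres as triangles with their number in the list. Peaks 888, 1152, 754 and 1317 lie between 8.53% (888, HoxB) and 29.4% (1317, HoxA) of the cluster length from the anterior end. In HoxC, peaks 238 and 920 lie at 32.8% and 46.4%, and peak 1144 lies just outside Hoxc13.

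No sequence of the peaks themselves was used, but RefSeq promoter sequences (assembly GRCm38.p6, 250 bases before to 50 bases after a gene start) were at hand for 22 of the 38 Hox genes, and for noncoding and flanking genes. The 4 promoters shown are those of the windows that overlap one of the 8 peaks or lie within 300 bp of one. They are printed 5′ to 3′ on the gene's strand, with capitals for GGGCGG, the GC box, or CACCC, the CACCC box, on either strand. Hoxb3os is at chr11:96353345-96353644 on the minus strand, Mtx2 at chr2:74825562-74825861 on the plus strand, Gm29905 at chr15:102998118-102998417 on the minus strand and Gm14424 at chr2:74752434-74752733 on the plus strand.
Hoxb3os: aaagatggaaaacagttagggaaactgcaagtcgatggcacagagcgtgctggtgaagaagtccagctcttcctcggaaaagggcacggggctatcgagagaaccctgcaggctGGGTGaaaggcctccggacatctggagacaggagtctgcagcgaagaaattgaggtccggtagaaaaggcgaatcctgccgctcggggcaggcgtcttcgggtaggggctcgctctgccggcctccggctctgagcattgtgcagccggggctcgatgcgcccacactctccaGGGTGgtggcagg
Mtx2: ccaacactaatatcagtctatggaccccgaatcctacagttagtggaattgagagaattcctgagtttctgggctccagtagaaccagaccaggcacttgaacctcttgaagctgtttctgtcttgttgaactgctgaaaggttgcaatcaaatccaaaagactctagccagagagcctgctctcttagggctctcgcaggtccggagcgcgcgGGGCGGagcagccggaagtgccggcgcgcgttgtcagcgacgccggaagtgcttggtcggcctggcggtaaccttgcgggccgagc
Gm29905: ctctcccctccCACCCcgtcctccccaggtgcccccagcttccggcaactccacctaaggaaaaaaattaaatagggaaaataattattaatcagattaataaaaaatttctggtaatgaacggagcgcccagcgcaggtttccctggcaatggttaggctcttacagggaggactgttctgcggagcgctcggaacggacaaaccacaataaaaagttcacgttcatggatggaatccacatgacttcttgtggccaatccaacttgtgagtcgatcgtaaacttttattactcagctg
Gm14424: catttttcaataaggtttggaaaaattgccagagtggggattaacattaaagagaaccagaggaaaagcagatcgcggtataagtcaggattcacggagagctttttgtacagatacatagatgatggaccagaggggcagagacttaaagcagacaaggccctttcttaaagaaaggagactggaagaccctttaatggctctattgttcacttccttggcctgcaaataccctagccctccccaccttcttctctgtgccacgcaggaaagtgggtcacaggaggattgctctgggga

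The promoter of Hoxb3os, a noncoding gene antisense to Hoxb3, lay whole inside peak 888 and the promoter of Mtx2, a mitochondrial import gene next to HoxD, overlapped peak 158 by 267 bases. Both are promoters of genes that are not Hox genes. Over all 32619 RefSeq promoters, 1.51% overlapped a peak, and of the 24 promoters listed for Hox genes 0 did. Those 24 do not include promoters of Hoxc13, Hoxa4, Hoxb2 or Hoxc6, the Hox genes with the closest peaks. The Hoxb3os promoter held no GC box and 2 CACCC boxes, at bases 115 to 119 and 288 to 292 of the printed sequence, both inside the peak. The Mtx2 promoter held 1 GC box, at bases 215 to 220 and inside the peak. Gm29905 and Gm14424 begin close to Hoxc6 and in the stretch between Hoxd3 and Hoxd1; their promoters ended 153 and 221 bp short of peaks 238 and 754 and held no GC box.

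At HoxA there was 1 peak. It was number 1317 of the list, at chr6:52190951-52191774, and was 823 bp wide. Its centre lay inside Hoxa4, a gene of the hindbrain and vertebrae, 340.5 bp from the boundary at 52191703, and the peak ran across that boundary. No strand is listed for Hoxa4, but the other 9 HoxA genes are all listed on the minus strand, on which the boundary at the higher position is the start. The same peak also lay inside Hoxa3, a pharyngeal patterning gene whose RefSeq extent (52169059 to 52213067) takes in Hoxa4, Hoxa5 and Hoxa6, and inside the noncoding LOC115490409. From this peak to the far end of Hoxa13, 69.5 kb held no peak centre.

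Every HoxA gene thus had peak 1317 as its nearest. Hoxa5, which acts in lung and vertebrae, was 10.4 kb from it and Hoxa6 13.5 kb, while Hoxa3, counted to its boundary, was 21.7 kb, Hoxa7 24.3 kb and Hoxa2, a gene of the hindbrain and second arch, 26.5 kb. The posterior genes, known for patterning the limb skeleton, followed in their order on the chromosome. Hoxa9 was at 31.7 kb, Hoxa10 at 39.8 kb, Hoxa11 at 50.7 kb and Hoxa13 at 67.5 kb.

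HoxB held 2 peaks near its anterior end, 7.70 kb apart by their centres. Peak 888, at chr11:96352894-96353954 and 1060 bp wide, lay whole inside Hoxb2, a hindbrain gene, 0.596 kb from its upper boundary and 30 bp from the boundary of Hoxb3os. The listed HoxB genes Hoxb1, Hoxb4 and Hoxb8 are on the plus strand and Hoxb3os is on the minus strand, so with Hoxb2 taken as plus, the peak lay at the antisense start and 1.79 kb from the Hoxb2 start. Peak 1152, at chr11:96345147-96346299 and 1152 bp wide, lay inside both Hoxb3 and Hoxb3os, 2.21 kb from the upper boundary of Hoxb3. With Hoxb3 taken as plus, that boundary is the gene's end, and its start was 38.6 kb from the peak. A ChIP peak has no strand, so at both positions binding at the sense and at the antisense gene cannot be told apart.

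The rest of HoxB was without peaks for 151.4 kb, the longest such stretch in the 4 clusters, which takes in the wide gap before Hoxb13. Hoxb1, an early hindbrain gene, was 12.3 kb from peak 888. Hoxb4 was 24.1 kb from peak 1152, and the genes beyond it stood ever farther off, from Hoxb5 at 39.6 kb over Hoxb6 (44.2 kb), Hoxb7 (55.6 kb) and Hoxb8 (60.4 kb) to Hoxb9 at 69.1 kb. Hoxb13, a gene of the tail end and prostate, was 149.1 kb away, the only one of the 38 genes beyond 100 kb.

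HoxC had 3 peaks with the 100 kb window, against 2 for HoxB and HoxD and 1 for HoxA; inside the clusters HoxB and HoxC had 2 each. Its genes had the smallest median distance, 11.3 kb over 9 genes. Peak 1144, at chr15:102920697-102921105 and 408 bp wide, lay whole outside Hoxc13 with its centre 0.230 kb from the gene's lower boundary. Hoxc13 is the Hox gene best known for hair and nail formation. Peak 920, at chr15:102983020-102983363 and 343 bp wide, lay inside Hoxc9, a trunk gene, 1.25 kb from a boundary. Peak 238, at chr15:102998570-102999324 and 754 bp wide, lay inside Hoxc6, 0.721 kb from its lower boundary, and 0.780 kb from the noncoding Gm29905. The one HoxC gene with a listed strand, Hoxc4, is on the plus strand, and on that strand the lower boundaries of Hoxc6 and Hoxc13 are their starts. For Hoxc9 the same strand makes the nearer boundary the gene's end, and its start was 6.16 kb from peak 920.

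The other 6 HoxC genes lay between the peaks or, for Hoxc5 and Hoxc4, on the anterior side of the last one. Hoxc8 was 4.67 kb from peak 238, Hoxc5 15.1 kb and Hoxc4 19.2 kb. Hoxc10, a hindlimb and lumbar gene, was 11.3 kb from peak 920, Hoxc12 was 15.9 kb from peak 1144, and Hoxc11 was the farthest HoxC gene, at 26.5 kb. In HoxC the posterior genes ranged from 0.230 to 26.5 kb and the anterior genes from 0.721 to 19.2 kb, so the anterior range lay inside the posterior one. Hotair, the noncoding RNA gene between Hoxc12 and Hoxc11, was 23.2 kb from a peak.

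HoxD had 1 peak inside the cluster and 1 beside it. Peak 754, at chr2:74752954-74753367 and 413 bp wide, lay in none of the Hox genes but inside 2 noncoding genes, Haglr and Gm14424, 4.89 kb from Hoxd3 and 9.82 kb from Hoxd1. Hoxd3 is listed on the plus strand, so the 4.89 kb was to its end, and its start was 41.2 kb away. Hoxd1 and Hoxd3 are the most anterior HoxD genes. Hoxd4 was 24000.5 bp from that peak and Hoxd8 45.2 kb. The posterior HoxD genes, which shape the forearm and digits in the mesenchyme, were all beyond 50 kb, with Hoxd9 at 53.0 kb, Hoxd10 at 58.1 kb, Hoxd11 at 66.1 kb, Hoxd12 at 75.5 kb and Hoxd13 at 81.6 kb. Peak 158, at chr2:74825594-74825890 and 296 bp wide, lay 60.6 kb beyond Hoxd1, but its centre was 70 bp from Mtx2. Of the 8 peaks it was the only one whose nearest protein-coding gene was not a Hox gene. No other protein-coding gene lies inside the clusters, so every peak inside them had to have a Hox gene nearest.

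**Figure D2:**
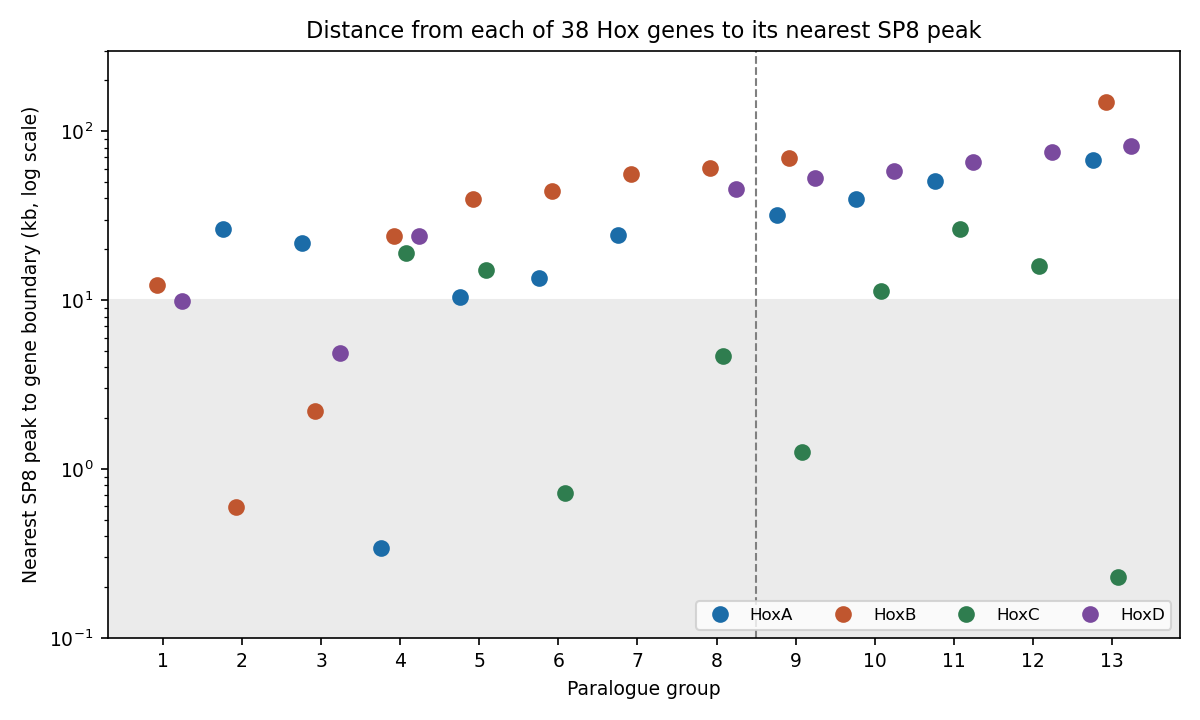
Distance in kb, on a log scale, from each of the 38 Hox genes to its nearest SP8 peak centre, by paralogue group and coloured by cluster, with the range under 10 kb shaded and a dashed line between groups 8 and 9. Right of the line only the HoxC genes Hoxc9 (1.25 kb) and Hoxc13 (0.23 kb) lie in the shaded range.

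Paralogues, the genes that share a number across clusters, often differed in their distance to a peak, with likenesses between HoxB and HoxD. Peaks 1152 and 754 lay at 12.95% and 12.36% of the length of HoxB and HoxD from the anterior end, 2.21 kb from Hoxb3 and 4.89 kb from Hoxd3. In group 4, Hoxa4 had a peak at its boundary (0.341 kb), and the other 3 genes had theirs between 19.2 kb (Hoxc4) and 24.1 kb (Hoxb4). Group 13 had the widest spread, from 0.230 kb at Hoxc13 to 149.1 kb at Hoxb13, with Hoxa13 and Hoxd13 between. In group 9, Hoxc9 was at 1.25 kb and the other 3 genes were between 31.7 kb (Hoxa9) and 69.1 kb (Hoxb9). Group 3 was the group with 2 of its 3 genes within 10 kb, Hoxb3 and Hoxd3, both by their ends. Groups 5, 7, 10, 11 and 12 had none.

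As a whole the Hox genes were closer to peaks than most genes, with the caution that neighbours share peaks. Within 1 kb of a boundary 4 of 38 Hox genes had a peak centre, against 2.81% of protein-coding genes. Within 10 kb the number was 9 of 38, or 23.7%, against 5.4%. These 9 genes had 7 different nearest peaks. Within 100 kb it was 37 of 38 against 19.9%, a count set by the length of the clusters, since 1 peak in the middle puts a whole cluster within reach. The median distance was 24.2 kb over the Hox genes and 481.2 kb over all protein-coding genes. Gene density moved the comparison share little: of 2726 other genes with 8 to 10 protein-coding neighbours within 100 kb, the range between the quartiles of the Hox genes, 5.50% had a peak within 10 kb. Of 142 homeobox genes outside the Hox clusters, 20 had one (14.1%).

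Within 10 kb there were 7 of 22 anterior genes (31.8%) and 2 of 16 posterior genes (12.5%). The anterior count includes Hoxb3 and Hoxd3, whose starts were more than 10 kb from a peak. The median distance was 17.1 kb for the anterior and 51.8 kb for the posterior genes, with ranges of 0.341 to 60.4 kb and 0.230 to 149.1 kb that overlapped. Taken cluster by cluster, the anterior genes had the smaller median in HoxA (17.6 against 45.3 kb), HoxB (31.8 against 109.1 kb), HoxC (9.87 against 11.3 kb) and HoxD (16.9 against 66.1 kb). The order was the same in all 4, but in HoxC the medians were close. The number of loci is 4 and their genes share peaks, so no p-value is given.

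**Figure D3:**
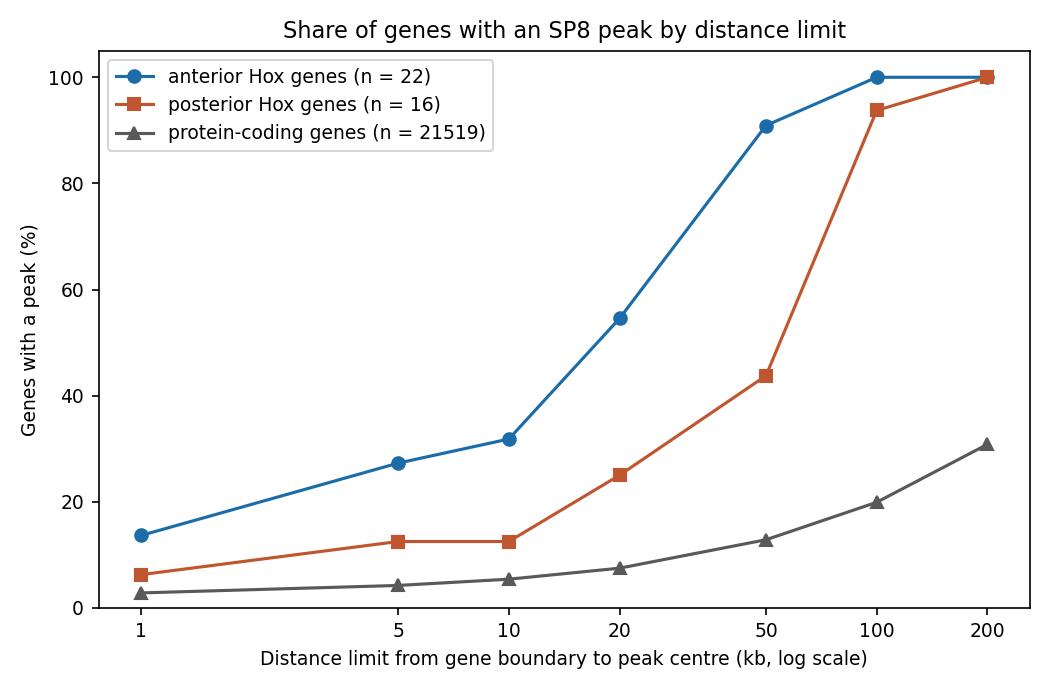
Share of genes (%) with an SP8 peak centre within a given distance of a gene boundary (kb, log scale), for anterior Hox genes (n = 22), posterior Hox genes (n = 16) and all protein-coding genes (n = 21519). At 10 kb the points are at 31.8, 12.5 and 5.4%, and at 100 kb both Hox groups are above 90%, with 37 of 38 genes.

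As regions, the clusters held more peaks per Mb than the list as a whole. The 6 peaks inside them lay in 485 kb, or 12.4 peaks per Mb, and the 8 peaks of the windows in 1285 kb, or 6.23 per Mb (exact Poisson 95% interval 2.69 to 12.3, counting error only). The whole list had 0.563 placed peaks per Mb. When the chromosomes were divided into tiles of 121.3 kb, the mean cluster length, 6.16% of 21181 tiles held a peak centre, as did 4 of 4 clusters, and 0.538% held 2 or more, as did HoxB and HoxC. Tiles include gene deserts, and clusters differ in length from 96.9 kb (HoxD) to 173.9 kb (HoxB). Peaks covered 0.937% of the cluster sequence, from 0.426% in HoxD to 1.27% in HoxB.

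Beyond the windows the next peaks lay between 150.01 and 1689 kb from the clusters. The median distance of a protein-coding gene to a peak, with no window left out, was 481.2 kb. On the anterior side of HoxA the next peak, number 220, was 150.01 kb from Hoxa2, at a boundary of Skap2 (0.139 kb), and on the posterior side the next was 1054 kb away. HoxD, which is known for long-range limb enhancers in the gene deserts on both its sides, had no further peak for 939 kb on its anterior side and 1689 kb on its posterior side. At HoxB the next peaks were 516 kb beyond Hoxb1 and 203 kb beyond Hoxb13, and at HoxC the next was 228 kb beyond Hoxc13, with no placed peak between Hoxc4 and the end of the chromosome.

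The peaks at Hoxa4, Hoxb2, Hoxb3 and Hoxc6 were wide, and the other Hox peaks lay nearer the median of the list. The median width of the 8, end minus start, was 583.5 bp against 336 bp over the list. Without HoxA it was 413 bp and without HoxB 410.5 bp. Of the 8 peaks, 7 were wider than the list median. Both HoxB peaks were wider than 1 kb, as were 2.62% of all peaks, and peak 1152 was among the 24 widest of the list. The Hoxa4 peak (823 bp) was among the 72 widest and the Hoxc6 peak (754 bp) among the 100 widest. The HoxC peaks at Hoxc9 and Hoxc13 and the HoxD peak at Gm14424 (343, 408 and 413 bp) lay between the quartiles of the list (257.5 and 465.5 bp), and the Mtx2 peak (296 bp) was the narrowest of the 8. Their numbers in the list ran from 158, at Mtx2, to 1317, at Hoxa4, with a median of 904. What the number stands for is not stated, so it is not read as strength.

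**Figure D4:**
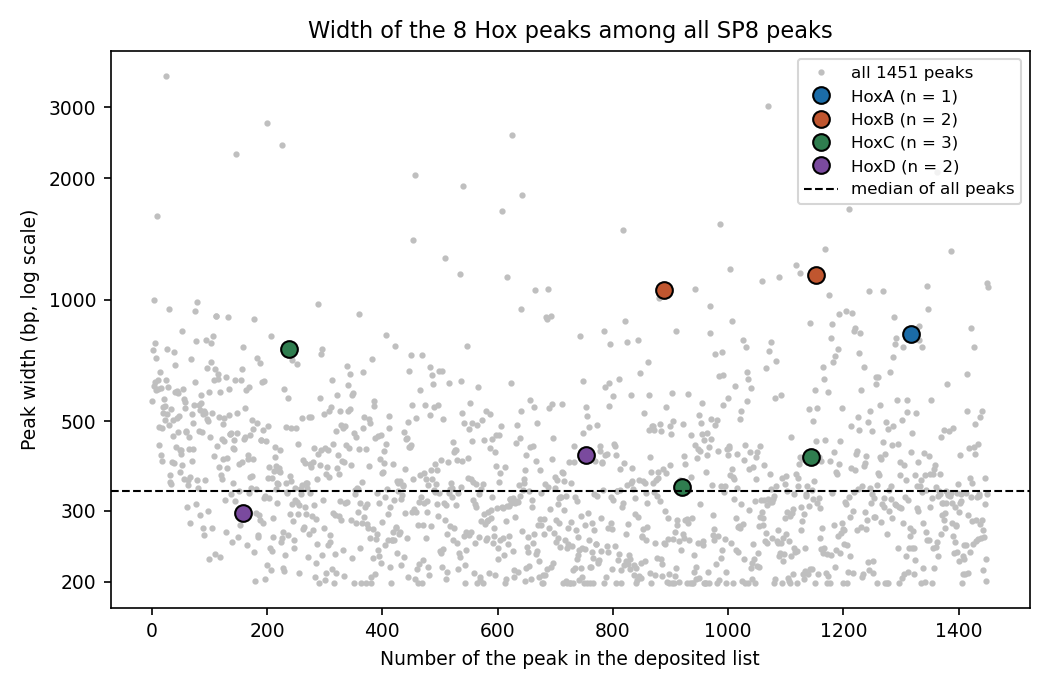
Peak width (bp, log scale) against the peak's number in the deposited list, for all 1451 peaks (grey) and the 8 Hox peaks (coloured by cluster), with a dashed line at the median width of 336 bp. The 2 HoxB peaks lie above 1000 bp, and 7 of the 8 lie above the line.

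The promoters listed for Hox genes were searched for the boxes that SP proteins bind. GGGCGG on either strand was in 10 of 24 Hox promoters (41.7%, Wilson 95% interval 24.5 to 61.2), against 35.9% of all 32619 promoters, so the Hox share lay near the background. CACCC on either strand was in 16 of 24 (66.7%, 46.7 to 82.0), against 57.7%. The box count differed within the clusters: the promoter of Hoxd13 held 7 GC boxes, that of Hoxa13 6 and that of Hoxa6 5, and these genes were 81.6, 67.5 and 13.5 kb from a peak. The promoter of Hoxd1, the listed Hox promoter nearest to a peak (9362 bp from its edge), held 2 GC boxes. TAATTA, a core that homeodomain proteins bind, was in 2 of 24 Hox promoters, both of Hoxd11, against 5.25% of all promoters. GGGNGG, which includes every GGGCGG match, was in 20 of 24 (83.3%), against 69.0% of all promoters. A match is a description of letters and not a site.

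The clusters also carry microRNA genes, and their mature sequences are shown because both families have members in more than 1 cluster. Bases 2 to 8, the seed by which a microRNA pairs with its targets, are in capitals. The miR-10 pair and the miR-196 pair each share a seed.
mmu-miR-10a-5p: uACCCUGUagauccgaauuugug
mmu-miR-10b-5p: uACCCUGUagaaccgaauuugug
mmu-miR-196a-5p: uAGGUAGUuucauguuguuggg
mmu-miR-196b-5p: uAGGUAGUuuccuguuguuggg

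Mir10a in HoxB was 28.4 kb from a peak and Mir10b in HoxD 27.0 kb. The 3 genes of the miR-196 family differed more: Mir196a-2, between Hoxc10 and Hoxc9, was 9.76 kb from peak 920, Mir196b in HoxA was 38.7 kb from peak 1317 and Mir196a-1 in HoxB was 80.5 kb from peak 1152. Mir615, inside Hoxc5, was 16.0 kb from peak 238. Of the 35 long noncoding RNA genes in the windows, 7 had a peak within 10 kb, against 3.28% of all 12609 such genes, and 3 within 1 kb, against 0.999%. The 3 were Hoxb3os, Gm14424 and Gm29905, and the others were LOC115490409 (1697.5 bp), Gm36878 (2.13 kb, near Hoxc9), Haglr (4.74 kb) and Hoxaas3. These genes share peaks with the Hox genes they overlap or adjoin. Among antisense genes named for Hox genes, Hoxaas3 was 9.76 kb from peak 1317 and Hoxaas2, Hoxd3os1, Hoxb5os and Hoxa11os were 21.9 to 53.9 kb away. Hottip, at the posterior end of HoxA, was 71.4 kb from a peak and Hotairm1, at the anterior end, 29.3 kb. Evx2 and Evx1, the homeobox genes at the posterior ends of HoxD and HoxA, were 91.6 and 122.1 kb from a peak.

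Genes that work with or on Hox genes were counted in the same way. Of 10 TALE homeobox genes, whose proteins bind DNA together with Hox proteins, 2 had a peak within 10 kb, Pknox1 (0.312 kb, a peak of 531 bp inside the gene) and Meis2 (1.05 kb), and Pbx3 had one at 78.3 kb. Meis1 was at 614.2 kb. Of 19 Polycomb and trithorax genes, which keep Hox genes off or on, 3 had a peak within 10 kb: Phc1, a subunit of a Polycomb complex, at 0.152 kb, Kmt2a, a methyltransferase that maintains Hox expression, at 0.400 kb with a peak of 911 bp, and Kdm6b, a demethylase of the Polycomb mark, at 2.47 kb. A further 4 of the list, Pcgf2, Kmt2d, Rnf2 and Ring1, had a peak between 27.0 and 96.9 kb. Ezh2, the methyltransferase of the Polycomb mark, was 849.2 kb from a peak. Of 11 retinoic acid genes, 0 were within 10 kb. Cyp26a1 and Cyp26c1, neighbouring genes for enzymes that break retinoic acid down, shared a peak at 15.6 and 23.8 kb, and the receptor genes Rara and Rarg had one at 64.0 and 68.8 kb. Of 13 homeobox genes that flank the clusters or are related to Hox genes, 0 were within 10 kb and 3 within 100 kb: En1, a gene of the ventral limb ectoderm, at 13.97 kb, Evx2 at 91.6 kb and Gbx2 at 97.5 kb. These lists are small, and a share of 2 in 10 or 3 in 19 rests on single peaks beside the background of 5.4%. Within 100 kb the background was higher, at 19.9% of protein-coding genes. Beside it stood 3 of 10 TALE genes and 7 of 19 Polycomb and trithorax genes. For the retinoic acid genes it was 4 of 11, and for the flanking or related genes 3 of 13.

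The labelled tissue could not be checked by expression. Of 8 ectoderm marker genes, 3 had a peak within 10 kb, Fgf8, Sp8 and Trp63, beside 5.4% of protein-coding genes. Cdh1 was 50.9 kb from a peak, and Epcam, Krt18, Krt8 and Krt5 were 103.4 to 613.5 kb away. Of 4 mesenchyme markers 0 did, with Tbx5 nearest at 113.6 kb. Binding near a gene does not show that the gene is used, so these counts say nothing of other cells in the preparation.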

How the data were processed

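Per the labels' protocols, forelimb ectoderm was taken off after trypsin digestion (0.25%, 20 min), and the libraries had 18 cycles of PCR. The authors named the list for q 0.1 and fold change 3; per the submitters' processing notes, FastQC, TopHat2, SAMtools, MACS2 and deepTools and the builds GRCm38 and mm10 were used, with no versions or settings. The deposited columns hold a sequence name, start and end in bp, and a score, here only each line's number (1 to 1451), which the authors do not explain. Depth is unknown. Whether starts count from 0 is not stated; overlaps read them so.

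Gene boundaries came from the RefSeq table of GRCm38.p6, chromosomes 1 to 19 and X, without starts below 3 Mb, and 38 of 38 symbols matched. A peak was placed by its centre, and its distance taken to the nearer end of each gene. Strand came from the promoter table where listed. No test was run, since a single list has no replicates; shares of promoters carry Wilson intervals. The distance step was tested on simulated data. Members and gene lists were chosen with earlier results of these data known. Named were all 38 genes, all 8 peaks and the nearest genes of those peaks, noncoding genes that hold or lie within 10 kb of those peaks, the known noncoding, microRNA and antisense genes of the clusters, and list genes within 100 kb of a peak. Epcam, Krt5, Krt8, Krt18, Skap2, Evx1, Meis1, Ezh2, Tbx5 and the promoters with most boxes were named after their values were seen. Alternatives varied the window, distance, list, motif and comparison genes. A further Hox gene is not reported here. Python 3.11.15, numpy 2.4.6, pandas 2.3.3 and scipy 1.17.1 were used.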

Additional observations from a re-analysis of the deposited data

How the results depend on the processing

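There were 40 alternatives to 8 results, 34 planned and 6 added after the peaks were seen. Of these, 29 stayed within the limit set for each result and 11 moved past it. The limit was 1.5 times for a count, and 1 SD or the 95% interval for a value. Only the anterior minus posterior difference could change sign, and it did so in 0 alternatives. The other results are counts, densities, widths and shares, which cannot fall below 0. Some limits were loose. For width, 1 SD was 337 bp, so a median equal to the list's 336 bp would also have stayed within it. A difference of 0 between anterior and posterior genes would likewise have stayed, since its interval held 0. With the lower-numbered part of the list only, 2 of the 8 peaks were left, at Hoxc6 and Mtx2. Of the 9 genes within 10 kb, 2 were left, Hoxc6 and Hoxc8. The other Hox peaks stand later in the list. A shorter list can only lower these counts, and whether they fell further than its length alone would give was not tested. Without HoxC there were 5 peaks. At 20 kb, 16 genes had a peak. Measured to listed gene starts, 1 of 22 genes, Hoxd1, had a peak within 10 kb (2 by boundaries). With strand taken from the cluster it was 7 of 38, the anterior genes Hoxb3 (38.6 kb) and Hoxd3 (41.2 kb) dropping out. The share of protein-coding genes was taken by boundaries only, so these counts by starts have no background beside them. Density was 12.4 peaks per Mb inside the clusters and 2.68 with the widest window tried. The share of Hox promoters was 66.7% for CACCC, 16.7% for CCGCCC on the gene's strand and 83.3% for GGGNGG. The comparison share was 14.1% over other homeobox genes. The widest window held 12 peaks. The anterior minus posterior difference was 19.3 percentage points (95% interval -8.83 to 42.04, as if genes were independent). It ranged from 9.60 (without HoxD) to 33.0 (anterior groups 1 to 4), and was not computed by gene starts. By starts it would be smaller, since the anterior Hoxb3 and Hoxd3 drop out. The posterior Hoxc9 (6.16 kb) and Hoxc13 (0.23 kb) stay within 10 kb. Without HoxC, 0 of 11 posterior genes had a peak within 10 kb, beside 5.4% of protein-coding genes. Motifs in peaks were not run, for want of a genome. No paired analysis was possible because the values come from 1 list without groups to pair.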

Other observations

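Across the RefSeq promoters, the GC box went with peaks. Of the 491 promoters that overlapped a peak, 438 held GGGCGG on either strand (89.2%, Wilson 95% interval 86.2 to 91.7), against 35.9% of all promoters; their median GC content was 68.0% against 53.0%, and whether the box exceeds what that GC content alone gives was not tested. The promoter of Hoxb3os inside the HoxB peak was among the 53 without the box, with a GC content of 60.7%. TAATTA, which holds no G or C, was in 8 of the 491 (1.63%) and in 5.25% of all promoters. Whether this differs from what their GC content alone gives was not tested either. Hoxa13, with a GC content of 81.0% and 6 GC boxes in its listed promoter, and Hoxd13, with 74.3% and 7, were 67.5 and 81.6 kb from a peak.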
